A study of Homo sapiens and Mus musculus with 13 samples.

Results

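The replication-dependent histone genes were examined in both RNA-Seq tables, as all symbols that start with HIST1H, HIST2H, HIST3H or HIST4H (Hist1h to Hist4h in mouse) and have a mean of at least 0.5 FPKM over the libraries of their table. FPKM counts sequenced fragments relative to the length of the transcript and to all mapped fragments. This limit was met by 26 of 70 listed histone genes in human and by 29 of 70 in mouse, so the members were 55 of 79751 listed genes. The limit uses the mean over all libraries of a table and no difference between groups. Just inside it were HIST1H4A (mean 0.893 FPKM) and Hist1h3c (0.558), and just outside HIST1H3J (0.472) and Hist1h3h (0.491). Of the human genes left out, 29 were listed at 0 in all 7 libraries, as were 3 mouse genes in all 6 tumors.

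The human libraries came from MDA-MB-231, a triple-negative breast cancer cell line, in which Cas9 and guide RNAs were delivered by lentivirus and infected cells were selected with puromycin. The groups were 1 Control line, which carried a GFP guide, 2 TRIM11-KD lines (TRIM11 guide 1 or 2), 2 KDM5C-KD lines (KDM5C guide 1 or 2) and 2 DKD lines, in which both genes were targeted (TRIM11 guide 1 or 2, each with KDM5C guide 2). The mouse libraries came from mammary tumors of 3 Trim11+/+ and 3 Trim11+/- MMTV-PyVT mice, hybrids of C57BL/6N and FVB/N at the age of 3 months, with 1 library per tumor. In Trim11+/- mice, exons 2 to 6 of Trim11 were deleted by CRISPR/Cas9. All mice of both genotypes carry the viral middle T oncogene under the MMTV promoter, which is active in the mammary epithelium. TRIM11 is a ubiquitin ligase and KDM5C a demethylase of histone H3, and the study asked how they act together in breast cancer.

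Replication-dependent histone genes supply the H1 linker histone and the core histones H2A, H2B, H3 and H4 that package newly made DNA, and most of them are transcribed only in S phase. They lie in clusters, the largest on human chromosome 6 and mouse chromosome 13, and their mRNAs end in a conserved stem-loop in place of a poly(A) tail. The stem-loop is bound by SLBP, which takes part in 3′ end processing, translation and decay of these mRNAs. A number of these genes also give polyadenylated transcripts that run past the stem-loop, above all in differentiated cells. The libraries were made from poly(A)-selected RNA, so the values here count the transcripts of these genes that were retained in such a selection, and not their whole mRNA pool. In bulk samples, fewer cells that express a gene and less of its RNA per cell cannot be told apart.

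In tumors, Trim11 was at 35.8, 36.3 and 39.2 FPKM in Trim11+/+ and at 23.995, 22.8 and 22.9 FPKM in Trim11+/-. In cells, KDM5C was at 30.3 FPKM in Control, 29.8 and 28.4 in TRIM11-KD, 20.6 and 21.4 in KDM5C-KD and 18.8 and 22.7 in DKD. TRIM11 was at 12.6 FPKM in Control but at 13.4 in TRIM11-KD1 and 16.1 in DKD1, against 10.6 in TRIM11-KD2 and 9.38 in DKD2, so the first line of each is named below as the library labelled TRIM11-KD1 or DKD1. These tables hold mRNA only, so whether TRIM11 protein was lower in those lines was not tested here. The paper states that its CRISPR knockdown lines were checked by western blotting. Group names follow the labels. VIM, a mesenchymal marker, was at 1038 to 1309 FPKM in all MDA-MB-231 libraries and the estrogen receptor ESR1 at or near 0, while ERBB2, expected to be low in this line, was at 17.8 to 23.7 FPKM. EPCAM, an epithelial marker, was at 4.03 FPKM in Control, 4.999 and 6.77 in TRIM11-KD, 10.3 and 12.2 in KDM5C-KD and 12.3 and 12.0 in DKD. It was thus higher in the same groups in which several histone genes were lower than in TRIM11-KD, and its part in those differences was not tested. Epithelial Epcam was at 408 to 493 FPKM in all tumors. Total FPKM differed little between libraries of a table, and the size factors of all 13 libraries were between 0.994 and 1.02. The MDA-MB-231 values do not show how many reads lie behind them, so their depth is unknown.

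The stem-loops of some of the named members are shown first, because the histone mRNAs without a poly(A) tail end in this element. The histone stem-loop motif, 16 bases that start with GG, hold CTT before and AG after the loop and end with CC, was searched on the coding strand in the first 100 bases after the stop codon. It was found in 24 of 24 human members with an annotated stop codon and in 20 of 28 mouse members. Of all protein-coding genes, 0.364% of 20048 in human and 0.239% of 21762 in mouse had it. The annotated transcripts of Hist1h2ai, Hist1h4k, Hist1h3i and Hist2h2bb end at about the stop codon, which leaves no bases to search. The first base of the motif lay 25 to 58 bases after the stop codon in human members. Among the replacement histones, which are made outside S phase, the motif was present in H2AX and H2afx and not in H2AZ1, H3-3A, H3-3B and H2AJ or the mouse counterparts of these 4. The sequences below are from GENCODE transcripts, with the motif in capitals.
HIST1H1C: caaaaGGCTCTTTTCAGAGCCacca
HIST1H2AC: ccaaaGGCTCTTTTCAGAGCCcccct
HIST1H2BD: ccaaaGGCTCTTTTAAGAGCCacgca
HIST1H2BK: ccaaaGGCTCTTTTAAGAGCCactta
HIST2H2BE: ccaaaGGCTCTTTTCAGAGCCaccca
HIST2H3D: ctaaaGGCTCTTTTCAGAGCCact
Hist1h4i: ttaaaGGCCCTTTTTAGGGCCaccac
Hist1h4h: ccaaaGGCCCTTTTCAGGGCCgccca
Hist1h4j: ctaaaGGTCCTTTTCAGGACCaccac
Hist1h2bg: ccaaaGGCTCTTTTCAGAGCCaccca
Hist3h2a: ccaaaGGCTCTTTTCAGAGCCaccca
The 16 bases in capitals are in the 3′ UTR in each case, for example at chr6:27114145-27114160 (hg19, minus strand) for HIST1H2BK, at chr13:22040966-22040981 (mm10, minus strand) for Hist1h4i and at chr11:58955172-58955187 (mm10, plus strand) for Hist3h2a.

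Some members had an annotated transcript that runs more than 50 bases past the stem-loop, or in which it was not found. These were 10 of 24 human and 21 of 28 mouse members. The mouse count includes Hist1h2ai, Hist1h4k, Hist1h3i and Hist2h2bb, annotated no further than about the stop codon, so it partly rests on short annotation. The human members of this kind were HIST1H2AC, HIST1H2BC, HIST1H2BD, HIST1H2BJ, HIST1H2BN, HIST2H2BE, HIST2H2BF, HIST1H3H, HIST1H4H and HIST4H4. The median of their mean expression was 3.49 FPKM, with a range of 1.29 to 30.6. For the other 14 the median was 2.49 FPKM and the range 0.893 to 131, and this set holds the 2 highest members, HIST1H2BK and HIST1H1C. The ranges overlapped widely. HIST1H2BK and HIST1H1C are also listed below as known to give polyadenylated mRNA, so the annotation used here does not hold all of their transcripts.

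Human members are also arranged in pairs that are transcribed away from each other. HIST1H2BC and HIST1H2AC start 219 bases apart on chromosome 6, HIST1H2BJ and HIST1H2AG 248 bases, HIST1H2AM and HIST1H2BO 240 bases, and HIST2H2BE and HIST2H2AC, on chromosome 1, 236 bases. Of the members, 21 had a promoter in the RefSeq table (GRCh38.p14, 250 bases before to 50 after the start). The octamer ATTTGCAT, the site bound by the POU factor OCT1, was found on either strand in 10 of these 21, against 1.80% of 27305 promoters. It was in 4 of 5 H2A and 6 of 8 H2B promoters and in none of 2 H1, 4 H3 and 2 H4 promoters. Each H2A promoter with the octamer shares the same bases with its divergent H2B partner, so these counts are not independent. CCAAT was in 19 of 21 (35.7% of all promoters) and TATAAA in 16 of 21 (12.0%). The windows below show the octamer of 3 pairs and of HIST1H2BK in capitals, each read on the minus strand, because the genes of a pair share the same 8 bases.
HIST1H2BC and HIST1H2AC: ttcatacctcATTTGCATagctctgccc
HIST1H2BJ and HIST1H2AG: tcttcaccttATTTGCATaagcgattct
HIST2H2BE and HIST2H2AC: cggagccctaATTTGCATaaggtggtta
HIST1H2BK: tcttcaccttATTTGCATgagaggtcct
In GRCh38.p14 the octamers lie at chr6:26124042-26124049, chr6:27132835-27132842, chr1:149886721-149886728 and chr6:27146897-27146904. The octamer is 116 bases before the start of HIST1H2BC and between 39 and 40 bases before those of HIST1H2BJ, HIST2H2BE and HIST1H2BK.

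In MDA-MB-231 cells the histone signal was carried by a few genes of the H2B, H1 and H2A classes. HIST1H2BK, an H2B gene, was at 119 FPKM in Control, at 145 and 159 in TRIM11-KD, 122 and 113 in KDM5C-KD and 86.1 and 169 in DKD. It made up 36.9% to 50.02% of the summed FPKM of all members. Of the 100-base stretches of HIST1H2BK 22.5% also occur in other annotated transcripts. The DKD lines were the lowest and the highest of all 7 libraries for this gene. HIST1H1C, which encodes the linker histone H1.2, was at 59.8 FPKM in Control, 92.3 and 62.5 in TRIM11-KD, 51.1 and 38.4 in KDM5C-KD and 32.2 and 47.6 in DKD. Both TRIM11-KD lines were thus above Control, and the other 4 lines were below it. HIST1H2AC was the highest H2A gene, at 41.8 FPKM in Control and 14.7 to 41.5 in the other libraries. The highest H3 and H4 genes were lower, HIST2H3D with a mean of 4.87 FPKM and HIST1H4C with 2.92. The remaining highest of their classes were HIST1H1E (mean 4.97 FPKM), HIST1H2AG (2.82), HIST1H2BD (25.9), HIST1H3C (1.86) and HIST1H4H (2.18).

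The sum over all 26 members was 312 FPKM in Control, 394 and 362 in TRIM11-KD, 281 and 278 in KDM5C-KD and 197 and 339 in DKD. TRIM11-KD was above Control and KDM5C-KD below it in both lines, and DKD was on either side. Without HIST1H2BK the sums were 194 in Control, 249 and 203 in TRIM11-KD, 159 and 165 in KDM5C-KD and 111 and 169 in DKD, and both DKD lines were then below Control. The library labelled DKD1 was the lowest of the 7 for 12 of the 26 members. It also stood apart in 1 small RNA, SNORD32A, named after its value was seen, at 10927 FPKM. This brought its sum over 394 entries listed by name as RNAs without a poly(A) tail to 11475 FPKM, against 429 to 1289 in the other 6 libraries. Some of these entries join such an RNA to another gene, as SNORA31,TPT1, the highest in Control, TRIM11-KD2, KDM5C-KD1 and KDM5C-KD2. Without the highest such entry of each library, the sum of the library labelled DKD1 was 548 FPKM and those of the others 234 to 795. The part of this in its histone values was not tested. The H2B sum was 176 FPKM in Control, 236 and 234 in TRIM11-KD, 180 and 163 in KDM5C-KD and 125 and 232 in DKD. H4 sums varied more between lines of the same group, relative to their level, with 4.97 and 12.4 FPKM in TRIM11-KD and 5.79 and 15.1 in KDM5C-KD. These sums were 0.0399% to 0.0794% of the total FPKM and were not tested.

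**Figure D1:**
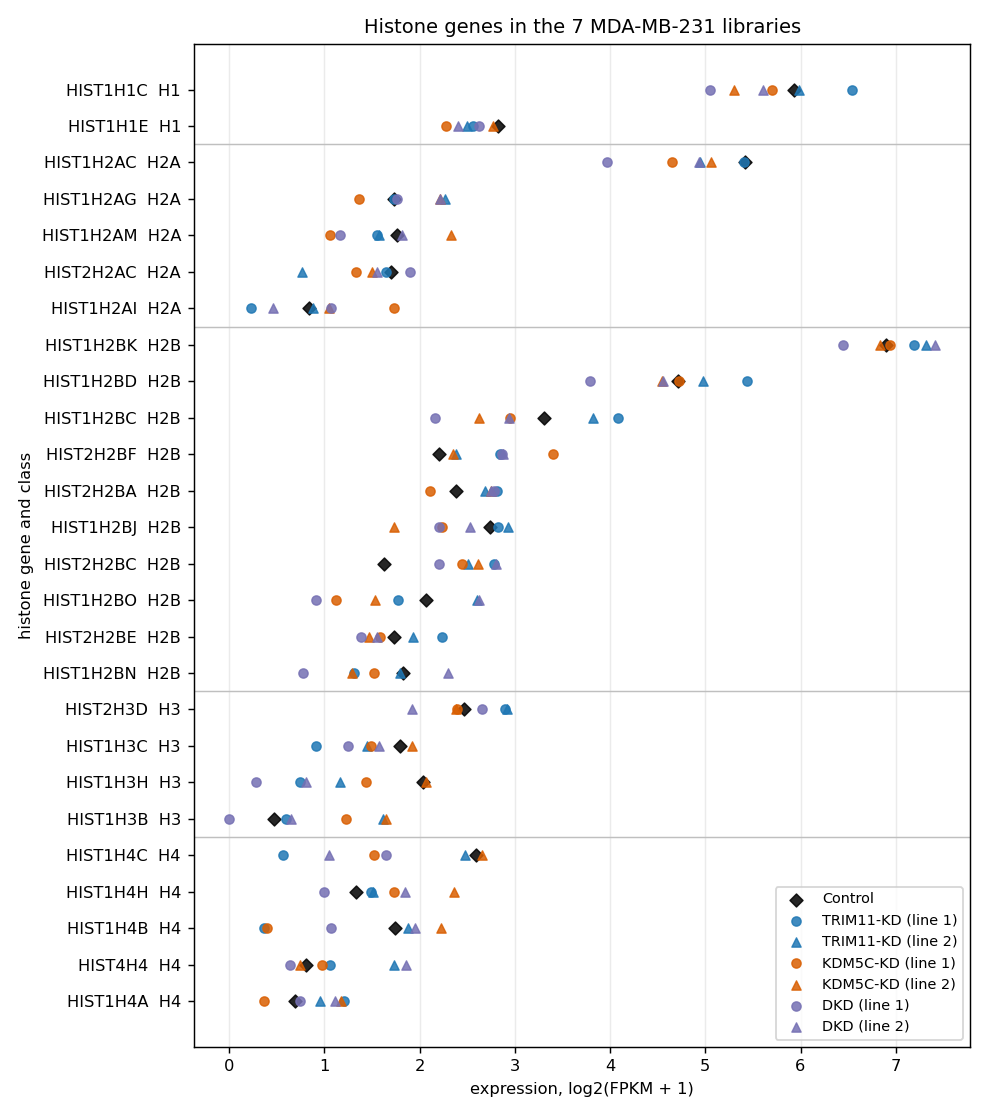
Expression of the 26 human histone genes, as log2(FPKM + 1), in the 7 MDA-MB-231 libraries, with 1 point per library, ordered by class and mean. HIST1H2BK, HIST1H1C, HIST1H2AC and HIST1H2BD lie above the others in every library, and the points of HIST1H2BC separate TRIM11-KD, Control and the other lines.

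**Figure D2:**
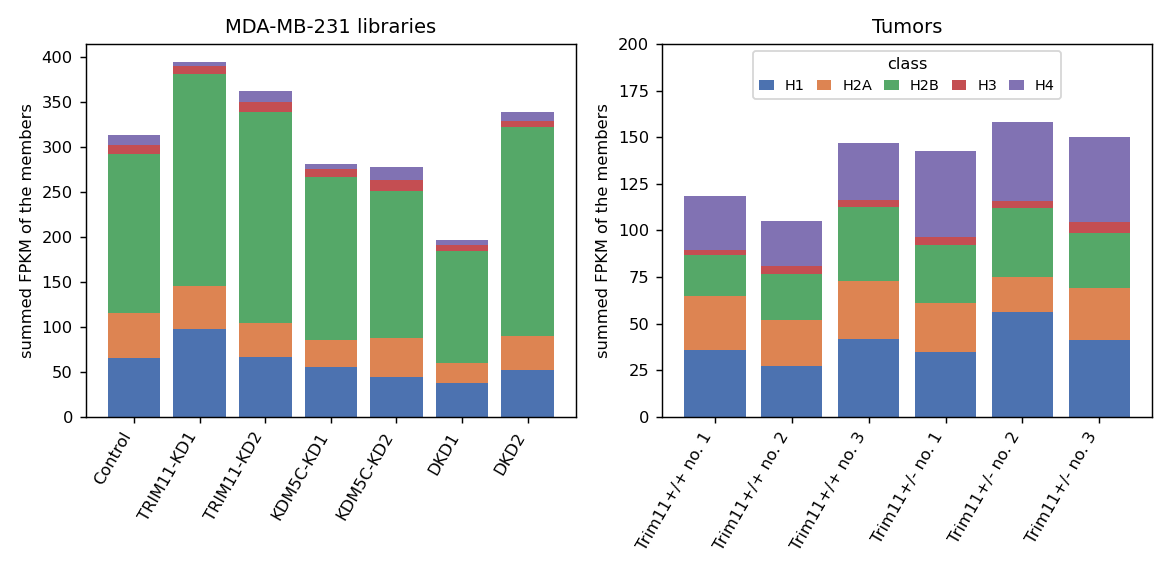
Summed FPKM of the members by histone class in each MDA-MB-231 library (left) and each tumor (right), on axes of different range. H2B makes up most of the signal in cells, while H1, H2A, H2B and H4 each have a large share in tumors, and the H4 part is larger in all 3 Trim11+/- tumors.

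The first question was how histone genes differ between the lines with a KDM5C guide and those with a TRIM11 guide. KDM5C-KD was compared with TRIM11-KD by limma on log2(FPKM + 1) over the 6 knockdown libraries, and a gene was called when its mean FPKM differed by 1.5 times or more and its unadjusted p was under 0.05. Of the 26 members, 4 were lower in KDM5C-KD (2.28% of all 12636 genes tested were) and 1 was higher (3.09% of all genes). The lower genes were HIST1H1C, HIST1H2BC, HIST1H2BJ and HIST2H2BE, of the H1 and H2B classes, and the higher gene was HIST1H3H, an H3 gene. The median log2 difference over the members was -0.18, against 0.01 over all genes, and ranged from -0.45 to -0.01 with each library left out in turn. By class it was -0.46 for the 10 H2B members and 0.43 for the 4 H3 members. No gene of the whole table had an adjusted p under 0.05 in limma's test, while 1241 genes (9.82%) and 5 members had an unadjusted p under 0.05. With 2 lines per group, and no statement that lines were replicated further, these p-values measure only the spread between lines.

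HIST1H2BC was at 16.01 and 13.1 FPKM in TRIM11-KD, at 6.74 and 5.16 in KDM5C-KD, at 3.47 and 6.65 in DKD and at 8.92 in Control. The 2 TRIM11-KD lines were above Control and the other 4 lines below it, with no overlap. Its log2 difference between KDM5C-KD and TRIM11-KD was -1.16 (standard error 0.28, limma adjusted p = 0.494). The annotated transcripts of HIST1H2BC (chr6:26086545-26124154, hg19, minus strand) reach over HIST1H4C and HFE, the libraries do not keep strand, and 21.4% of its 100-base stretches also occur in other annotated transcripts, so its value is uncertain. HIST1H2BJ was at 6.08 and 6.63 FPKM in TRIM11-KD, at 3.72 and 2.32 in KDM5C-KD and at 5.67 in Control. Its groups did not overlap, and the log2 difference was -0.89 (standard error 0.22, limma adjusted p = 0.494). Both calls held with each of the 4 libraries left out in turn.

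HIST2H2BE was at 3.71 and 2.81 FPKM in TRIM11-KD, 1.99 and 1.76 in KDM5C-KD and 2.31 in Control. The difference of HIST2H2BE was -0.56 on the log2 scale (standard error 0.18, limma adjusted p = 0.494), and that of HIST1H1C, with the values given above, -0.76 (standard error 0.27, limma adjusted p = 0.494). HIST1H3H was at 0.676 and 1.24 FPKM in TRIM11-KD, 1.72 and 3.18 in KDM5C-KD and 3.11 in Control, a log2 difference of 0.80 (standard error 0.31, limma adjusted p = 0.501). In each of these 3 genes the 2 groups did not overlap, but the call was lost without the library labelled TRIM11-KD1 and without KDM5C-KD2. Without the library labelled TRIM11-KD1 the counts were 0 higher and 2 lower, without TRIM11-KD2 4 and 4, and without KDM5C-KD2 2 and 4. Over all members, 9 were lower with no overlap between the 2 groups (21.0% of all genes) and 4 were higher (22.5% of all genes).

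Other members with large differences did not pass. HIST1H2BO was at 2.42 and 5.05 FPKM in TRIM11-KD and 1.17 and 1.90 in KDM5C-KD (log2 difference -0.86, limma adjusted p = 0.601), and HIST1H2BD at 42.4 and 30.5 against 25.5 and 22.3 (-0.57, adjusted p = 0.527). On the other side were HIST1H4C (0.57), HIST1H4H (0.55), HIST2H2BF (0.26) and HIST1H2AM (0.14), with limma adjusted p from 0.578 to 0.923. The lines of a group lay far apart for HIST1H4C, with 0.478 and 4.57 FPKM in TRIM11-KD and 1.88 and 5.32 in KDM5C-KD.

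**Figure D3:**
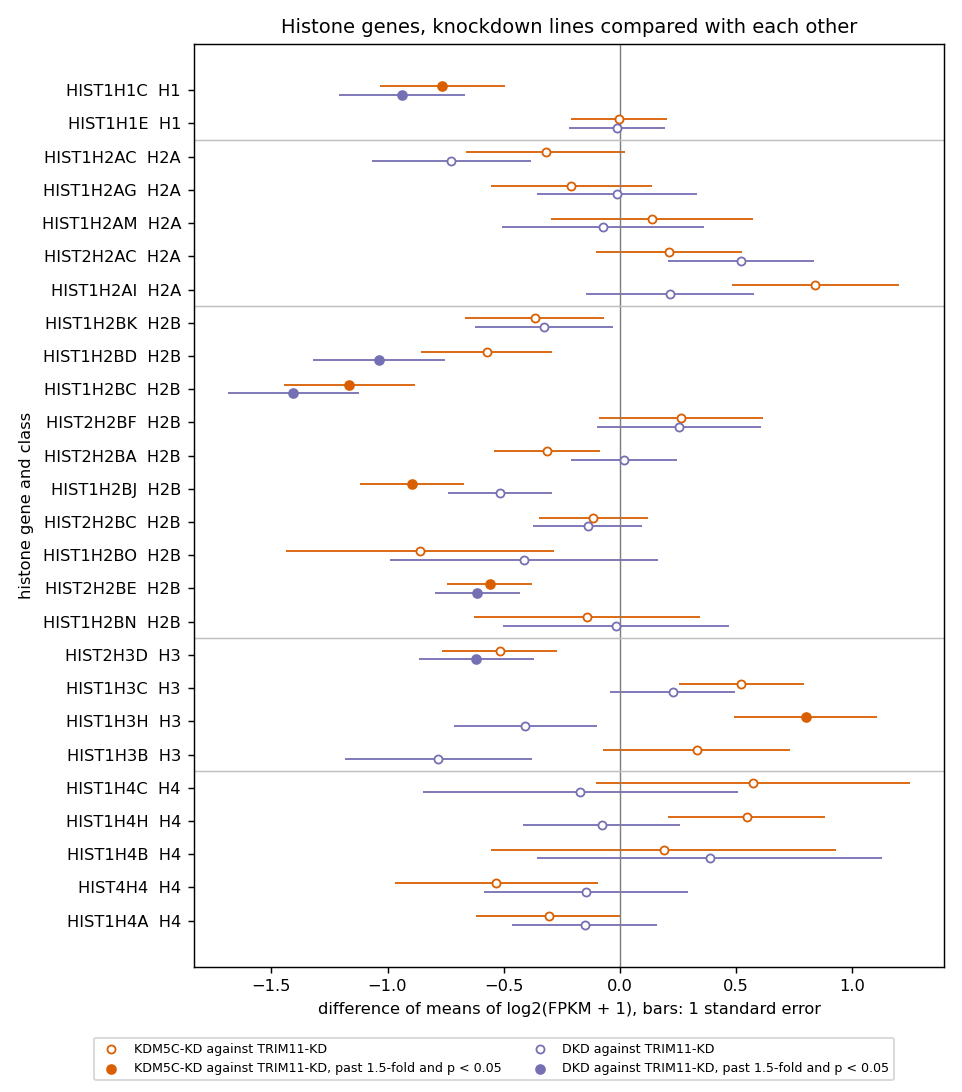
Differences in mean log2(FPKM + 1) of each human member between KDM5C-KD and TRIM11-KD and between DKD and TRIM11-KD, with bars of 1 standard error from limma, where filled points are called. HIST1H1C, HIST1H2BC and HIST2H2BE are called lower in both comparisons, which share the TRIM11-KD libraries.

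The lines with both targets were then set against each knockdown of 1 gene. DKD against TRIM11-KD gave 5 lower members (1.62% of all genes) and 0 higher (1.67% of all genes). The lower members were HIST1H1C, HIST1H2BC, HIST1H2BD, HIST2H2BE and HIST2H3D. This comparison shares the TRIM11-KD libraries with the former. In limma's test 888 genes (7.03%) and 5 members had an unadjusted p under 0.05, and 0 genes an adjusted p under 0.05. The median log2 difference over the members was -0.15, against 0.01 over all genes, and ranged from -0.47 to 0.02 with each library left out in turn.

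HIST1H2BC, with the values given above, had a log2 difference of -1.40 between DKD and TRIM11-KD (standard error 0.28, limma adjusted p = 0.702), and its call held without each of the 4 libraries. HIST1H2BD was at 42.4 and 30.5 FPKM in TRIM11-KD, at 12.8 and 22.5 in DKD and at 25.2 in Control. The 2 groups of HIST1H2BD lay on opposite sides of Control, and the difference was -1.04 (standard error 0.28, limma adjusted p = 0.702), but without the library labelled TRIM11-KD1 it was -0.80 and not called. For HIST1H1C it was -0.94 (standard error 0.27) and for HIST2H2BE -0.61 (standard error 0.18), each with a limma adjusted p = 0.702. Both calls were lost without the library labelled TRIM11-KD1 (-0.66 and -0.46) and without the library labelled DKD1 (-0.66 and -0.53).

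HIST2H3D, an H3 gene, was at 6.45 and 6.54 FPKM in TRIM11-KD, 5.30 and 2.79 in DKD and 4.54 in Control (log2 difference -0.62, standard error 0.25, limma adjusted p = 0.707). Only DKD2 was far from TRIM11-KD, and without it the difference was -0.25. The call of HIST2H3D was also lost without either TRIM11-KD line, and 53.5% of its 100-base stretches occur in other annotated transcripts. HIST1H2AC, the divergent partner of HIST1H2BC, was at 41.5 and 29.9 FPKM in TRIM11-KD and 14.7 and 29.6 in DKD (-0.73, limma adjusted p = 0.719) and was not called. HIST2H2BF and HIST2H2BA had differences of 0.25 and 0.02 (limma adjusted p = 0.874 and adjusted p = 0.991). In all, 7 members were lower with no overlap (19.3% of all genes) and 1 was higher (21.7% of all genes). Without the library labelled TRIM11-KD1, DKD1 and DKD2 the number of lower members was 2, 3 and 8, and without the library labelled TRIM11-KD1 or DKD1 1 member was higher.

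DKD against KDM5C-KD gave 2 lower members (3.41% of all genes) and 0 higher (3.33% of all genes), and in limma's test 1473 genes (11.7%) and 2 members had an unadjusted and 0 genes an adjusted p under 0.05. The 2 were the H3 genes HIST1H3B and HIST1H3H, named after their values were seen. HIST1H3H was at 1.72 and 3.18 FPKM in KDM5C-KD and 0.217 and 0.752 in DKD, with no overlap (log2 difference -1.21, standard error 0.31, limma adjusted p = 0.379), and its call held without each library. HIST1H3B was at 1.34 and 2.13 FPKM in KDM5C-KD, 0.566 in DKD2 and listed at 0 in DKD1 (-1.11, standard error 0.40, limma adjusted p = 0.395), and its call was lost without KDM5C-KD1, KDM5C-KD2 or the library labelled DKD1. Both genes are lowly expressed. They were also the 2 members that were lower with no overlap (22.0% of all genes), while 1, HIST2H2AC, was higher (21.3% of all genes). The median over all members was -0.04, against 0.00 over all genes. The H2B members with the largest increases were HIST1H2BO (0.45), HIST1H2BJ (0.38), HIST2H2BA (0.33) and HIST1H2BN (0.13), with HIST1H2AG at 0.20, and none of them was called. HIST2H2BA is annotated as a transcribed pseudogene. All of its 11 stretches of 100 bases also occur in another entry under H2BP1, its own current symbol, so they show no sharing with a different gene. The decreases in HIST1H4C (-0.74), HIST1H4H (-0.63), HIST1H2BD (-0.46), HIST1H2AC (-0.41) and HIST1H2BC (-0.24) did not pass either. The DKD lines decided this result: without the library labelled DKD1 it was 3 higher and 1 lower, and without DKD2 0 and 6. Without KDM5C-KD1 or KDM5C-KD2, 1 member was higher, and without the latter 1 was lower.

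Control was 1 library, so no test was made against it, since its own spread is not known, and a gene was counted only if the 2 lines of a group both exceeded its level by 1.5 times or more, or both fell short of it by as much. The 3 comparisons share this library. In TRIM11-KD, 2 members were above (3.11% of all genes) and 1 below (2.58%). In KDM5C-KD, 3 were above (5.10%) and 2 below (3.97%), and in DKD 2 were above (5.57%) and 2 below (4.87%). HIST2H2BC was above Control in all 6 lines, at 2.09 FPKM in Control and 3.62 to 5.97 in the others, which is 1.73 to 2.86 times as high. Of all genes, 135 (1.07%) were above in all 6 lines and 115 (0.91%) below. HIST2H2BC is annotated as a pseudogene of H2B, and 100% of its 100-base stretches occur in other annotated transcripts. These include an entry that overlaps the same locus. How much is shared with other loci is thus not known, and its value is uncertain.

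In TRIM11-KD the other counted members were HIST1H4A, 2.13 and 1.52 times as high as Control (0.615 FPKM), and HIST1H3H, at 0.217 and 0.398 of it. In KDM5C-KD, HIST1H3B was 3.44 and 5.45 times as high, though at only 0.390 FPKM in Control, and HIST1H4H was 1.53 and 2.72 times as high. HIST1H2BJ, at 0.655 and 0.409 of Control, and HIST1H2BO, at 0.368 and 0.596, were below. In DKD, HIST2H2BF was 1.75 and 1.76 times as high, the closest agreement between lines among counted genes. Its KDM5C-KD lines lay further apart, at 9.58 and 4.11 FPKM. Of its 100-base stretches 38.1% occur in other annotated transcripts, and its locus overlaps FCGR1A, so its value is uncertain. Also in DKD, HIST1H3H was at 0.0698 and 0.242 of Control and HIST1H4C at 0.427 and 0.212. HIST1H3H was thus below Control in TRIM11-KD and DKD, while KDM5C-KD was at 0.552 and 1.02 of it. With a lower bar, 15 members had both TRIM11-KD lines above Control and 8 both below, against 32.4% and 36.6% of all genes. In KDM5C-KD and in DKD, 5 members had both lines above and 10 both below (34.6% and 36.7% of all genes in the former, 35.5% and 36.7% in the latter). The counts past 1.5 times depend on the 2 lines being read together: with 1 line alone they were 6 to 7 above and 2 to 6 below in TRIM11-KD, 5 to 7 and 5 to 9 in KDM5C-KD, and 2 to 8 and 4 to 14 in DKD.

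In tumors the members made up 0.0324% to 0.0495% of the total FPKM, and the highest, Hist1h1c, 23.4% to 34.3% of the members' sum. The comparison of genotypes asked which histone genes differ with the loss of 1 Trim11 allele. Of the 29 members, 5 were called higher in Trim11+/- than in Trim11+/+ (1.74% of all 17328 genes tested were) and 0 lower (1.87% of all genes). The 5 were the H4 genes Hist1h4i, Hist1h4h and Hist1h4j, the H2B gene Hist1h2bg and the H2A gene Hist3h2a. The 2 genotypes did not overlap for 6 higher members (6.60% of all genes) and 0 lower ones (6.78%). These 6 were Hist1h4i, Hist1h4j, Hist1h2bg, Hist3h2a, Hist1h2ae and Hist1h1e. In limma's test 1202 genes (6.94%) and 5 members had an unadjusted p under 0.05, and 1 gene (0.00577%) and 0 members an adjusted p under 0.05. The median log2 difference was 0.29 over the members and 0.00 over all genes, and by class 0.39 for H4, 0.31 for H2B, 0.23 for H1, 0.09 for H3 and 0.06 for H2A. With no limit on expression, 8 of the listed histone genes were called higher (1.62% of all 29509 genes above 0) and 1 lower (1.66%).

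Hist1h4i, an H4 gene of the chromosome 13 cluster, was at 12.2, 13.5 and 13.6 FPKM in Trim11+/+ and 24.4, 21.9 and 22.1 in Trim11+/- tumors, with 97 to 197 reads per tumor. Every Trim11+/- tumor was above every Trim11+/+ tumor, and the means were 13.1 ± 0.773 and 22.8 ± 1.36 (SD, n = 3, two-sided exact permutation p = 0.1, the smallest that 3 tumors against 3 allow). The log2 difference was 0.76 (standard error 0.09, limma adjusted p = 0.179). Hist1h4j was at 2.36, 2.54 and 2.19 against 2.91, 4.55 and 3.37 FPKM, with no overlap (0.44, standard error 0.16, limma adjusted p = 0.699), but its call was lost without any of 5 of the 6 tumors, with a log2 difference of 0.40 to 0.48 in 4 of these fits and of 0.30 without Trim11+/- tumor 2. Hist1h4h was at 4.28, 4.81 and 9.96 against 10.3, 9.68 and 13.7 FPKM. Trim11+/+ tumor 3 was above Trim11+/- tumor 2, so these groups overlapped (0.80, standard error 0.29, limma adjusted p = 0.694, two-sided exact permutation p = 0.2). The call of Hist1h4h was lost without Trim11+/+ tumor 1 or 2 or Trim11+/- tumor 1 or 3. Close copies can split reads: 15.1% of the 100-base stretches of Hist1h4i, 19.0% of Hist1h4j and 38.5% of Hist1h4h also occur in other annotated transcripts.

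The summed FPKM of the 6 H4 members was 28.4, 24.5 and 30.4 in Trim11+/+ and 46.5, 42.2 and 45.5 in Trim11+/- tumors, a ratio of means of 1.61. Without Hist1h4i it was 16.2, 10.96 and 16.9 against 22.1, 20.3 and 23.3. Neither set of sums overlapped between the genotypes, but both hold Hist1h4h and Hist1h4j, which were called higher. The H4 members not called, Hist1h4k, Hist1h4n and Hist2h4, each overlapped between the genotypes. Hist1h4k, the highest of these, was at 7.92, 2.84 and 2.24 FPKM in Trim11+/+ and 6.92, 4.37 and 3.88 in Trim11+/- tumors. The sums of H1, H2A, H2B and H3 overlapped, with ratios of 1.26, 0.852, 1.14 and 1.26. The mean H2A sums were 28.6 FPKM in Trim11+/+ and 24.4 in Trim11+/-. Of these, Hist1h2al, annotated as a processed pseudogene, made up 12.3 and 5.82 FPKM, so the lower H2A sum rests on this gene. Over all 29 members the sums were 118, 105 and 147 against 143, 158 and 150 FPKM, and only Trim11+/+ tumor 3 lay within the Trim11+/- range.

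Hist1h2bg was at 3.70, 3.34 and 2.096 FPKM in Trim11+/+ and 4.95, 7.18 and 7.98 in Trim11+/- tumors, with 13 to 53 reads. The genotypes did not overlap, and the log2 difference was 0.93 (standard error 0.22, limma adjusted p = 0.594, exact permutation p = 0.1). Its divergent partner Hist1h2ae, which starts 176 bases away, was at 1.43, 1.82 and 1.27 against 2.04, 2.26 and 1.85 FPKM, also with no overlap, but with a ratio of 1.36 it was not called (0.29, limma adjusted p = 0.737). Of Hist1h2bg 44.9% and of Hist1h2ae 30.7% of the 100-base stretches occur in other annotated transcripts. Hist2h2be, which has a long polyadenylated transcript and shares no such stretch, was at 1.15, 2.48 and 1.26 against 1.92, 4.08 and 2.56 FPKM. Its genotypes overlapped, and the log2 difference of 0.55 did not pass (limma adjusted p = 0.735).

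Hist3h2a, an H2A gene of a small cluster on chromosome 11, was at 1.24, 1.19 and 1.58 FPKM in Trim11+/+ and 3.98, 2.76 and 2.39 in Trim11+/- tumors, with 26 to 95 reads. The genotypes did not overlap, and the log2 difference was 0.77 (standard error 0.18, limma adjusted p = 0.594, exact permutation p = 0.1). This gene lies at chr11:58954685-58956830 (mm10), 21263 bases from Trim11 itself (chr11:58978093-58991458), whose exons were deleted in these mice. Its neighbor Hist3h2ba, 28560 bases from Trim11, was at 0.596, 0.481 and 1.62 against 1.17, 0.741 and 0.455 FPKM, with overlap and a log2 difference of -0.06. The Trim11+/- tumors carry the edited chromosome 11, so heterozygosity of Trim11 and any other local effect of that chromosome cannot be told apart for Hist3h2a. Of its 100-base stretches 29.8% also occur in transcripts of Trim17 and Gm44313, and Trim17 was at 0.759, 0.737 and 1.20 against 1.81, 0.852 and 0.822 FPKM.

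The calls of Hist1h4i, Hist1h2bg and Hist3h2a held without each of the 6 tumors, with log2 differences of 0.71 to 0.78, 0.75 to 1.11 and 0.61 to 0.89. Without Trim11+/- tumor 3 the number of higher members was 3, and without Trim11+/+ tumor 3 or Trim11+/- tumor 2, 1 member was lower. The highest member, Hist1h1c, was at 35.0, 25.9 and 39.9 against 33.4, 54.2 and 39.7 FPKM and overlapped (0.32, limma adjusted p = 0.804). Hist1h2bc was at 15.8, 16.1 and 31.9 against 18.7, 22.9 and 16.9 FPKM (-0.06, limma adjusted p = 0.978). Hist1h2al had the largest decrease, from 5.40, 11.03 and 20.6 to 10.9, 0 and 6.59 FPKM, but its tumors overlapped widely (-1.40, standard error 0.95, limma adjusted p = 0.802). It is annotated as a processed pseudogene, at chr13:51202727-51203065 (mm10), so it may not stand for a replication-dependent histone mRNA. Reads were few for most members: 18 of 29 had under 10 reads in at least 1 tumor, and 6 had at least 20 in every tumor.

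Markers of other cells differed between tumors. The skeletal muscle genes Acta1 and Ckm summed to 12.4, 61.1 and 131 FPKM in Trim11+/+ and 140, 0.565 and 0.444 in Trim11+/- tumors, the adipocyte genes Adipoq and Plin1 to 5.22, 37.2 and 8.83 against 27.4, 13.5 and 1.78, and the fibroblast genes Col1a1 and Pdgfra to 33.2, 83.0 and 82.8 against 57.3, 35.4 and 44.8. Each of these sums overlapped between the genotypes, and their part in the histone differences was not tested. The 5 epithelial markers summed to 1398 to 1704 FPKM in Trim11+/+ and 1320 to 1832 in Trim11+/-, the 4 leukocyte markers to 7.64 to 11.1 and 6.64 to 10.8, and the 2 endothelial markers to 8.27 to 12.6 and 6.59 to 12.2. Vim was the 1 marker called, at 41.1, 49.1 and 42.0 against 28.7, 24.5 and 20.6 FPKM, and its part was not tested either.

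**Figure D4:**
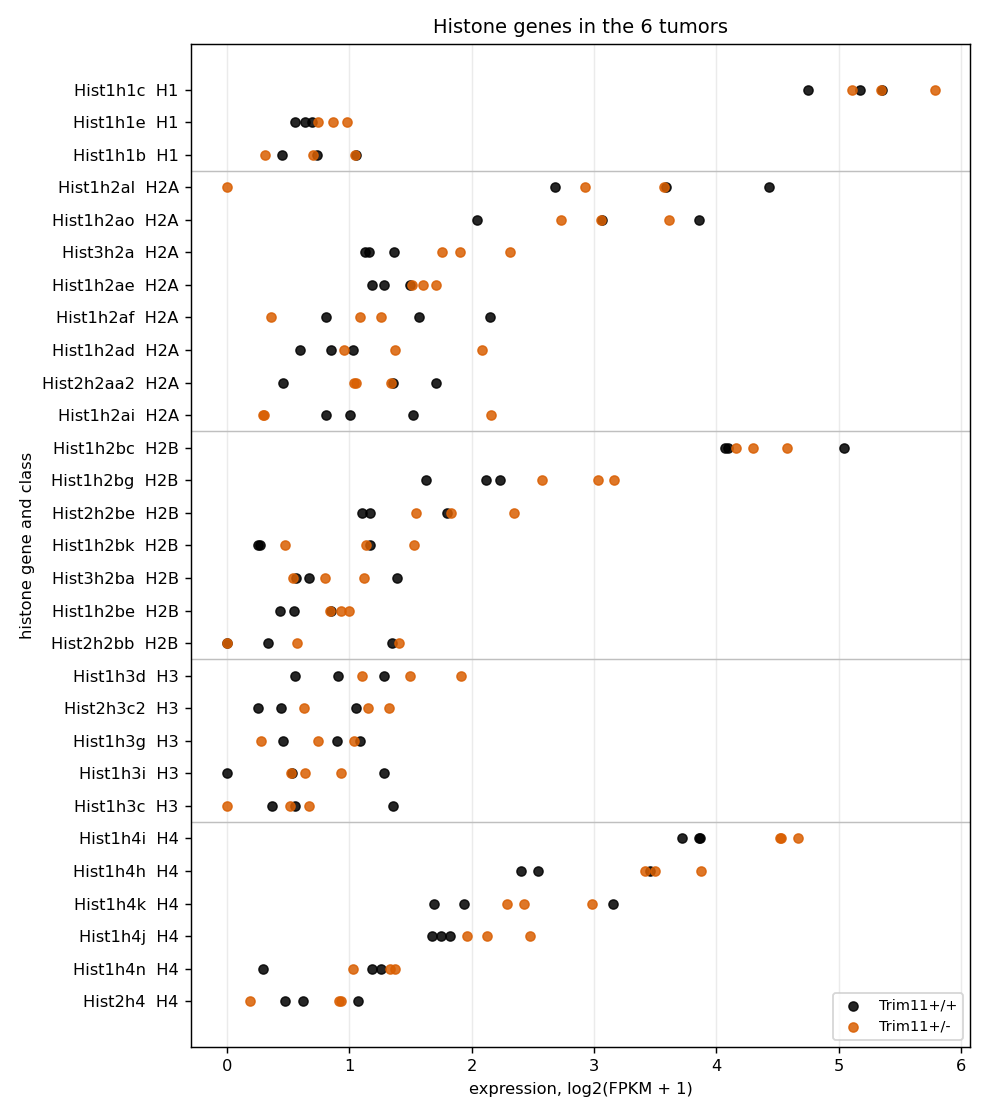
Expression of the 29 mouse histone genes, as log2(FPKM + 1), in 3 Trim11+/+ and 3 Trim11+/- tumors, with 1 point per tumor, ordered by class and mean. The genotypes are apart for Hist1h4i, Hist1h4j, Hist1h2bg, Hist3h2a, Hist1h2ae and Hist1h1e, and mixed for the others.

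**Figure D5:**
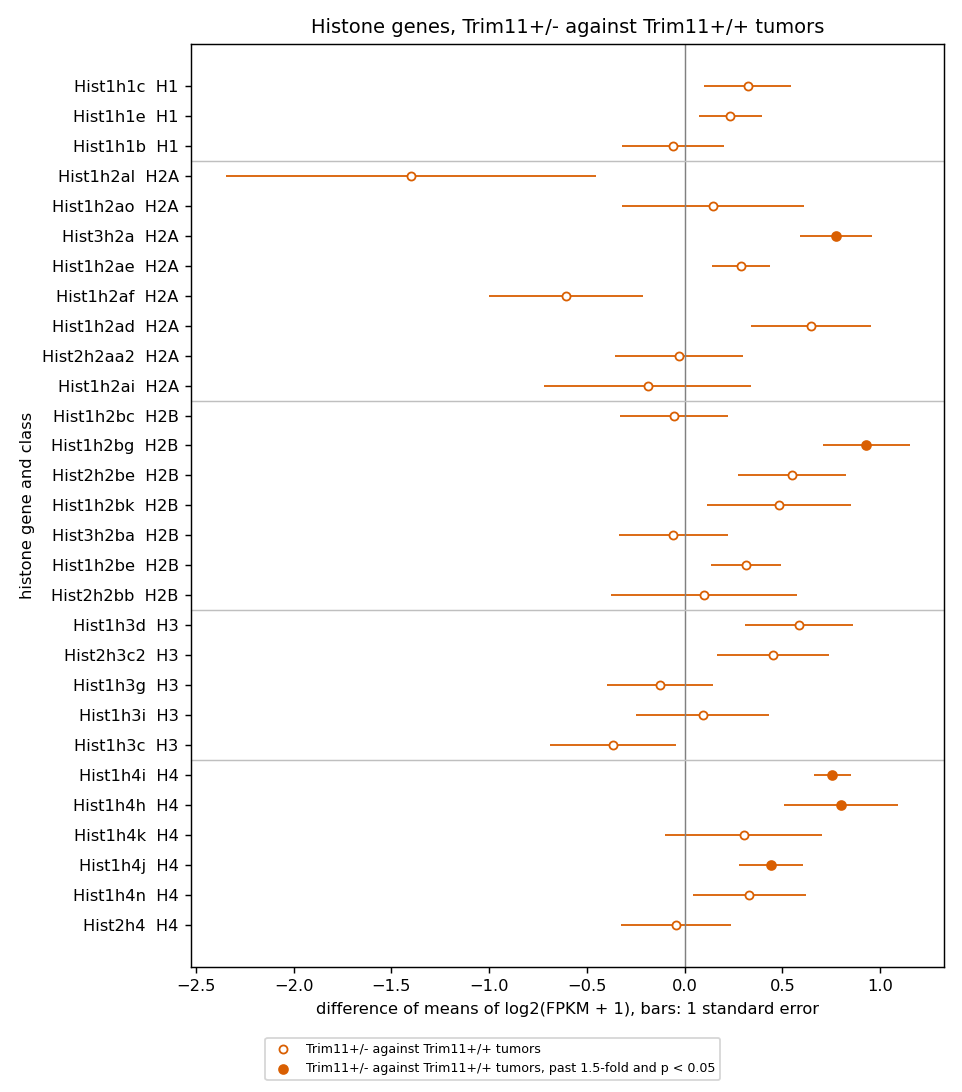
Differences in mean log2(FPKM + 1) of each mouse member between Trim11+/- and Trim11+/+ tumors, with bars of 1 standard error from limma, where filled points are called. All 5 filled points are higher in Trim11+/-, and Hist1h4i has the smallest error of the members.

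Genes that act with the replication-dependent histones were then listed by role. Replacement histones, whose mRNAs are polyadenylated, were much more abundant in these libraries, with sums of 1148 to 1351 FPKM over 11 genes in cells and 828 to 1055 in tumors. In cells the highest were H2AFZ, H3F3A and H3F3B. None of 10 tested in cells or 11 in tumors was called between genotypes or between knockdowns. H2AFX, which is phosphorylated at DNA breaks and whose mRNA can end in either way, was counted above Control in KDM5C-KD and in DKD. It was at 50.8 FPKM in Control, 56.9 and 93.0 in TRIM11-KD, 96.9 and 116 in KDM5C-KD and 101 and 119 in DKD. The library labelled TRIM11-KD1 was thus near Control, and the other 5 lines were above both.

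Of the factors that transcribe histone genes or cut their mRNAs (12 in cells, 11 in tumors), 0 were called in any of the 7 comparisons. SLBP was at 45.4 FPKM in Control, 50.4 and 63.9 in TRIM11-KD, 56.5 and 48.3 in KDM5C-KD and 67.8 and 77.4 in DKD, with both DKD lines highest. In tumors Slbp stayed between 7.45 and 9.02 FPKM. NPAT, the coactivator of histone gene transcription, was at 5.61 to 9.07 FPKM in cells and 4.72 to 6.64 in tumors.

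Replication-dependent histones are made in S phase, and 19 genes of that phase were examined. Of these, 4 were called higher in DKD than in TRIM11-KD (E2F1, MCM2, MCM5 and MCM6, where 1.67% of all genes were), 2 higher in DKD than in KDM5C-KD (MCM6 and TYMS, 3.33% of all genes) and 3 above Control in DKD (CCNE1, MCM6 and UHRF1, 5.57% of all genes), with 0 lower in each. None was called between KDM5C-KD and TRIM11-KD. The median log2 difference of the 19 genes was 0.59 between DKD and TRIM11-KD and 0.30 between KDM5C-KD and TRIM11-KD, against 0.01 over all genes in both. Against Control it was 0.60 in DKD, 0.34 in KDM5C-KD and 0.02 in TRIM11-KD. The lines of a group differed, with sums of 754 FPKM in Control, 635 and 961 in TRIM11-KD, 798 and 1123 in KDM5C-KD and 963 and 1317 in DKD. MCM6, a subunit of the replicative helicase, was at 22.2 FPKM in Control, 20.2 and 33.0 in TRIM11-KD, 24.3 and 28.4 in KDM5C-KD and 40.0 and 56.3 in DKD. Both DKD lines were above every other line. PCNA, the polymerase clamp, was at 103 FPKM in Control, 91.4 and 125 in TRIM11-KD, 109 and 155 in KDM5C-KD and 124 and 171 in DKD, and its groups overlapped. In tumors, 0 of the 19 were called, and their median difference was -0.13.

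The 6 human members known to give polyadenylated mRNA (HIST1H1C, HIST1H2AC, HIST1H2BC, HIST1H2BD, HIST1H2BK and HIST2H2BE) held 3 of the 4 members lower in KDM5C-KD than in TRIM11-KD and 4 of the 5 lower in DKD than in TRIM11-KD. Their median log2 differences were -0.57 and -0.83. The list was made with these results known and overlaps the members called, so it is no independent evidence. By annotation, the medians between KDM5C-KD and TRIM11-KD were -0.43 for the 10 members with a transcript past or without the stem-loop and 0.07 for the 14 others, with ranges of -1.16 to 0.80 and -0.86 to 0.84 that overlapped almost fully. Small RNAs without a poly(A) tail, such as SNORD97 and SNORA4, were taken by name, and some entries join one to another gene. Of 43 tested entries, 1 was higher and 5 were lower in KDM5C-KD than in TRIM11-KD (3.09% and 2.28% of all genes). Between DKD and TRIM11-KD, 0 were higher in DKD and 1 was lower (1.67% and 1.62%). Of 56 in tumors, 3 were higher and 4 lower in Trim11+/- (1.74% and 1.87%). How such RNAs entered poly(A)-selected libraries was not tested.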

How the data were processed

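Poly(A)-selected RNA of 7 MDA-MB-231 lines and 6 mouse mammary tumors was sequenced from non-directional libraries in paired reads. The authors removed adapters with Cutadapt, mapped reads with HISAT2 2.1.0 to hg19 or mm10 and the values they deposited are FPKM, in 1 table per species, for which their methods name Cufflinks. The submitters' processing notes also list Bowtie 0.12.2, with no stated role. Reads of the histone genes that match close copies could be split or lost in these steps.

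Of rows with the same symbol, that of the highest mean was used, giving 24523 human and 55228 mouse symbols, after 27 human symbols turned into dates were dropped. In tumors, 99.4% of 53462 genes gave whole reads (within 0.02 of a read), with library totals of 8793199 to 11117125 reads. In these, 1 read in a 1 kb gene adds 0.0900 to 0.114 FPKM. The depth of the cell lines is unknown.

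Genes with a mean of at least 0.5 FPKM (12636 human, 17328 mouse) were tested on log2(FPKM + 1) with limma 3.58.1 in R 4.3.3 (lmFit, eBayes with trend), with Benjamini-Hochberg adjustment over all genes, since FPKM does not suit count models. A log2 difference on this scale understates the change of low genes. Tumors were compared 3 against 3. The knockdown groups were compared in 1 fit of 6 libraries. A gene was called if its mean FPKM differed by 1.5 times or more and its unadjusted p was under 0.05. The fit was tested on simulated data. Single members in tumors were also tested by exact permutation, two-sided. Tumors are grouped by the genotype label, since the strain label names Trim11+/- for all 6.

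The genes named are, in each table, the 2 highest members of each class, in each comparison the 5 largest differences each way among members with a mean of at least 2 FPKM (against Control, only those counted), members past 1.5 times Control in all 6 lines, the targeted genes, and the called and highest genes of the lists. Other members called, and those listed by transcript end or read sharing, were named after their values were seen. The members, lists, sequence features and their limits were chosen with earlier results of these data known. Alternatives were a pseudocount of 0.1 (also 1 against Control), a mean of at least 1 FPKM or no limit, median-ratio size factors, a common FPKM total, no trend in eBayes, a replicate block, Control in the fit, only the groups compared, a fold of 2, each library left out and, chosen after seeing the data, limma voom on the recovered tumor reads.

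Positions are from GENCODE v44 lifted to hg19 and GENCODE vM21 (mm10), and promoters from RefSeq. Other computations used Python 3.11.15 with pandas 2.3.3 and numpy 2.4.6, and figures matplotlib 3.10.9.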

Additional observations from a re-analysis of the deposited data

Results flagged for a closer look

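Both TRIM11-KD lines were above and both KDM5C-KD lines below the 1 Control library for 5 of the 18 members with a mean of at least 2 FPKM, against 4.93% of all genes with such a mean, and the opposite held for 0 members (5.65% of genes). The log2 difference between KDM5C-KD and TRIM11-KD was -1.16 for HIST1H2BC, -0.89 for HIST1H2BJ, -0.76 for HIST1H1C, -0.56 for HIST2H2BE and -0.52 for HIST2H3D. Limma's adjusted p was 0.494 for the first 4 and 0.520 for HIST2H3D, which was not called. The 5 genes were picked by this pattern, so their sides of Control and the sign of these differences follow from the choice. Distances from Control ranged widely. In TRIM11-KD, HIST1H1C was 1.04 times as high in TRIM11-KD2 and HIST1H2BC 1.80 times in the library labelled TRIM11-KD1. In KDM5C-KD, HIST2H3D was at 0.934 and 0.929 of Control and HIST1H2BJ at 0.655 and 0.409.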

How the results depend on the processing

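Among member counts and medians under settings other than leaving out a library, 149 kept within 1.5 times the count or the spread between replicates, and 19 did not. For medians that spread was 0.376 in cells and 0.049 in tumors. In cells it is larger than the size of the medians between knockdowns, so these could change sign and still count as kept. In tumors, the median of the members was 0.43 with a pseudocount of 0.1, 0.14 with no limit on FPKM and 0.44 with limma voom on recovered reads. With no limit 8 histone genes were higher (1.62% of all genes) and 1 lower (1.66%). In limma voom on 16841 genes, 4 members had an unadjusted and 0 genes an adjusted p under 0.05. For KDM5C-KD set against TRIM11-KD, 0 members were higher with a pseudocount of 0.1 and 2 with a replicate block, and 7 were lower with only the groups compared. Against Control, in TRIM11-KD 1 member was above with a pseudocount of 0.1 or 1, a mean of at least 1 FPKM or a fold of 2, and 5 were below with no limit. In KDM5C-KD 0 were below with a pseudocount of 1 or a fold of 2, and 6 with no limit. In DKD 1 was above with a pseudocount of 1 and 0 with a fold of 2, and 4 were below with no limit.

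With each library left out, the numbers of higher and lower members were 3 to 7 and 0 to 1 in tumors (median 0.24 to 0.29), 0 to 4 and 2 to 4 between KDM5C-KD and TRIM11-KD, 0 to 3 and 1 to 6 between DKD and KDM5C-KD, and 0 to 1 and 2 to 8 between DKD and TRIM11-KD. Against Control, with 1 line, they were 6 to 7 and 2 to 6 in TRIM11-KD, 5 to 7 and 5 to 9 in KDM5C-KD and 2 to 8 and 4 to 14 in DKD. A group left with 1 library is assumed to vary like the others. The medians of the members were less stable in cells than in tumors. They ranged from -0.45 to -0.01 between KDM5C-KD and TRIM11-KD, from -0.37 to 0.11 between DKD and KDM5C-KD and from -0.47 to 0.02 between DKD and TRIM11-KD. Signs turned for Hist1h2bc (-0.22 to 0.26), between KDM5C-KD and TRIM11-KD for HIST1H4C (-0.38 to 1.53), HIST2H2BF (-0.26 to 0.79) and HIST1H2AM (-0.50 to 0.77), between DKD and KDM5C-KD for HIST1H2AG (-0.23 to 0.62), HIST1H2BC (-0.63 to 0.15), HIST1H2AC (-0.89 to 0.075), HIST1H2BO (-0.41 to 1.30) and HIST1H2BN (-0.63 to 0.89), and between DKD and TRIM11-KD for HIST2H2BA (-0.049 to 0.080). None of these was called with all libraries.

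The same-numbered tumors share only a number. Among the cell lines, TRIM11-KD and DKD lines with the same number share the TRIM11 guide, and KDM5C-KD2 shares KDM5C guide 2 with both DKD lines. Their deviations correlated at -0.33 to 0.04 in tumors and 0.09 to 0.37 in cells. With the replicate block, Hist2h2be, HIST1H2BO between KDM5C-KD and TRIM11-KD and HIST1H4H between DKD and KDM5C-KD passed the p threshold, and no other named member crossed it. The causes of these changes were not tested. Low read numbers limit most tumor members, and the 1 Control library limits all comparisons with it.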
